A study of Mus musculus with 8 samples.

Results

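Mast cell and basophil genes were described in RNA-seq libraries made from eosinophils of the mouse, sorted out of bone marrow or small intestine. The genes were 10 of the 38392 in the deposited expression table, taken by symbol: Kit, Cpa3, Mcpt1, Mcpt2, Mcpt8, Fcer1a, Ms4a2, Hdc, Prss34 and Tpsb2. All 10 had reads in each tissue, and 4 of them (Mcpt1, Mcpt2, Fcer1a and Tpsb2) had a mean under 10 reads over the 8 libraries. The 4 bone marrow libraries came from CD11b+Ly6G-Ly6C-SiglecF+SSChi cells and the 4 small intestine libraries from CD11b+MHC-II-SiglecF+SSChi cells. All were from wildtype C57/BL6 mice, female according to the study, with no treatment or altered allele in either group, and the study's methods give an age range for its mice as a whole, matched within experiments, while the labels used here give no age for a sample. By the study's methods, intestinal cells came from lamina propria digested with collagenase after the epithelium was removed, and were enriched on anti-CD11b beads, whereas flushed bone marrow was sorted without beads. Tissue, gate and handling therefore cannot be told apart. The question was how eosinophils resident in the gut differ in their transcripts from those at the site of production. The column names gave the tissue of each library but not the mouse, so libraries are named BM_1, BM_3, BM_4 and BM_5, and SI_6, SI_7, SI_10 and SI_11.

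Mast cells and basophils, like eosinophils, are granulated leukocytes of type 2 immunity. Both carry the high-affinity IgE receptor, a complex of the IgE-binding alpha chain (Fcer1a), the signal-amplifying beta chain (Ms4a2) and the gamma chain (Fcer1g), and release histamine made by histidine decarboxylase (Hdc). Mast cells depend on KIT, the receptor for stem cell factor, and store carboxypeptidase A3 and beta-chymases in a matrix of serglycin and heparin. In mice, mucosal mast cells such as those of the gut are known for Mcpt1 and Mcpt2, mast cells of connective tissue for Mcpt4, Cma1 and the tryptases, and basophils for Mcpt8 and Prss34. Several of these genes are also used by other cells: Kit by hematopoietic progenitors and interstitial cells of Cajal, Hdc by other myeloid cells.

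Promoter sequence is shown for the members that were lower in small intestine other than Kit, together with Mcpt1, which lies in the same locus as Mcpt8 but differed in the other direction. RefSeq promoters of 300 bases (build GRCm38.p6, 250 before and 50 after the start) were found for 8 of 10 members. The table used held none for Mcpt2 and Tpsb2. They were searched on both strands for 4 words, namely the word AGATAA, its variant ending in G (AGATAG), and then the word TGATAA with the variant ending in G (TGATAG), which the GATA factors of this lineage can bind. Of all 32851 promoters, 29.8% held at least 1 word. Among the members, Ms4a2 held 3, at positions -224, -37 and -11 from the start. Prss34 (-31), Cpa3 (-46), Fcer1a (-92), Mcpt1 (-99) and Hdc (-221) held 1 each, and Kit and Mcpt8 held none in this window. The lines below give 70 bases before and 50 after the start, 5′ to 3′ on the strand of the gene, with the words in capitals (TTATCT is AGATAA read on the other strand). They cover chr19:11623670-11623789 (minus strand), chr17:25298324-25298443 (plus), chr3:20242132-20242251 (minus), chr14:56085148-56085267 (minus) and chr14:56017894-56018013 (plus). The RefSeq starts of Mcpt8 and Mcpt1 differ from the GENCODE starts given with the loci below.
Ms4a2: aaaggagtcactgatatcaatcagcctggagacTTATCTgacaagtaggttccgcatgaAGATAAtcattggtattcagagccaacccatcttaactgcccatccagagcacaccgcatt
Prss34: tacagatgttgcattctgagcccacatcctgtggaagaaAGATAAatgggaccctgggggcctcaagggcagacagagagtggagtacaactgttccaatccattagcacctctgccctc
Cpa3: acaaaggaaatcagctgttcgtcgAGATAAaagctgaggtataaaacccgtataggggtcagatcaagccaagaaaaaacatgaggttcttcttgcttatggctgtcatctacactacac
Mcpt8: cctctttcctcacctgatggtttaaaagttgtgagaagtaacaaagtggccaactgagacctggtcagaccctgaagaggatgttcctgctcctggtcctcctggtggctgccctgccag
Mcpt1: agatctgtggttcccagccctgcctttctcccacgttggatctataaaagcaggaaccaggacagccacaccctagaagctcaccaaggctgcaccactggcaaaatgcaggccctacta
A match describes these letters only, and no binding was measured.

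Libraries held between 11508002 and 21289164 reads in genes, so that 1 read weighed least in BM_3 and most in SI_7. Transcripts of 10 eosinophil genes took 0.0211 to 0.0373% of reads in bone marrow libraries and 0.215 to 0.268% in small intestine libraries. Yet 4 of these genes were higher in small intestine and 5 lower, so the list did not rise as a whole. Within that list the level of Prg2, a granule protein, was 1831 ± 396 normalised counts in bone marrow against 147 ± 40.7 in the gut, and that of Alox15, a lipoxygenase, 159 ± 134 against 19775 ± 2245 (mean ± SD, n = 4 each). The 10 neutrophil precursor genes took 2.93 to 3.36% in bone marrow and 0.00333 to 0.00376% in small intestine, among which Mpo had more reads than any other in either tissue. The share of the eosinophil list was thus below that of the neutrophil precursor list in each library labelled bone marrow eosinophils. Stem and progenitor genes, where Myb had the most reads in bone marrow and Meis1 in small intestine, took 0.0669 to 0.0727% and 0.0203 to 0.0236%. Intestinal epithelial genes, where Lgals4 had the most reads in either tissue, took 0.00133 to 0.00154% in bone marrow and 0.112% in SI_6, 0.0456% in SI_7, 0.0187% in SI_11 and 0.0174% in SI_10. Smaller lists differed too, where 22.0% of all genes were higher in small intestine and 12.9% lower. Macrophage and dendritic cell genes (6 of 7 higher, with Csf1r first by reads in bone marrow and Itgax in small intestine) took 0.00345 to 0.00382% and 0.171 to 0.197%. That gut share was mostly Itgax and Adgre1, with 48043 and 46235 summed reads. The other genes of the list had from 61 (Cd209a) to 4423 (Csf1r). By the study's methods, human eosinophils were identified by EMR1, the human ADGRE1 protein, so this share does not separate macrophages from eosinophils. Fibroblast genes (5 of 6 higher, Col1a1 and Col3a1) took at most 0.000484% and 0.000895 to 0.00466%. Megakaryocyte genes (3 of 6 higher and 1 lower, Gp9 and Ppbp) took 0.00107 to 0.00222% and 0.00561 to 0.00783%, and erythroid genes (4 of 6 lower, Hbb-bt and Alas2) 0.00338 to 0.00418% and 0.000262 to 0.000632%. Jchain, a plasma cell gene, had 2295, 1441, 323 and 867 reads in SI_6, SI_7, SI_10 and SI_11, and its normalised counts were ordered there as the epithelial share, while the fibroblast share was likewise highest in SI_6 and then SI_7. None of these lists held a gene at 0 reads in all libraries of a tissue. The 10 members together took 0.0383 to 0.0508% and 0.0502 to 0.106%. What part these other transcripts had in the differences below was not tested.

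**Figure D1:**
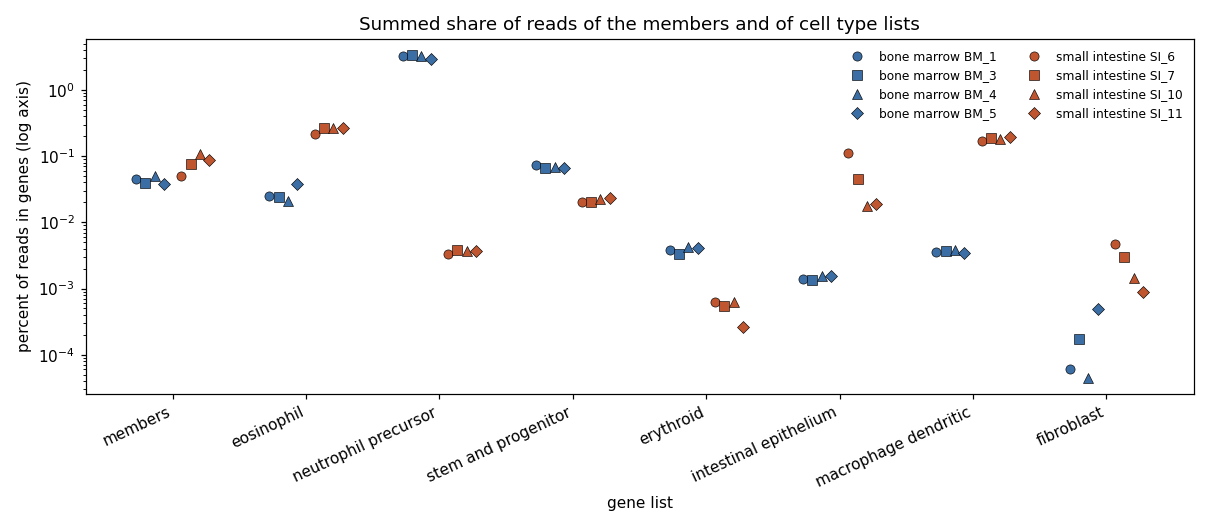
Percent of the reads in genes (log y axis) taken by the 10 members and by 7 lists of cell type genes (x axis) in each bone marrow (blue) and small intestine (orange) library. The neutrophil precursor list lies between 2.93 and 3.36% in bone marrow and at 0.00376% or less in small intestine, and the epithelial list differs most among the small intestine libraries.

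Against bone marrow, 2 of the 10 members were higher in small intestine (Hdc and Mcpt1), 5 were lower (Kit, Cpa3, Mcpt8, Ms4a2 and Prss34), and 3 did not pass the test (Mcpt2, Fcer1a and Tpsb2). Each difference is the small intestine mean minus that of bone marrow, in the deposited log2-like units, with limma's standard error (SE) and adjusted p-value over all genes (threshold 0.05). Of all 38392 genes, 34.9% passed, 22.0% higher and 12.9% lower. The libraries of the tissues did not overlap for 8 of the 10 members and for 34.3% of all genes. A mean under 10 reads was found for 4 of the 10 members and for 22177 of all 38392 genes. These shares therefore cover unlike levels. With only genes of at least 10 mean reads, 11824 genes were called, 6362 higher and 5462 lower. In that setting 1 member was higher and 5 were lower. The shares of all genes given beside the lists below have the same limit. The median difference of the members was -0.64, beside 0.37 for all genes. The split of all calls depended on scaling, with 63.2% of them higher on the deposited values, 45.8% after quantile normalisation and 29.5% after centring each library on its median, but the 7 called members kept their direction and their call under all of these. In bulk RNA, fewer cells of a type and less RNA per cell cannot be told apart.

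**Figure D2:**
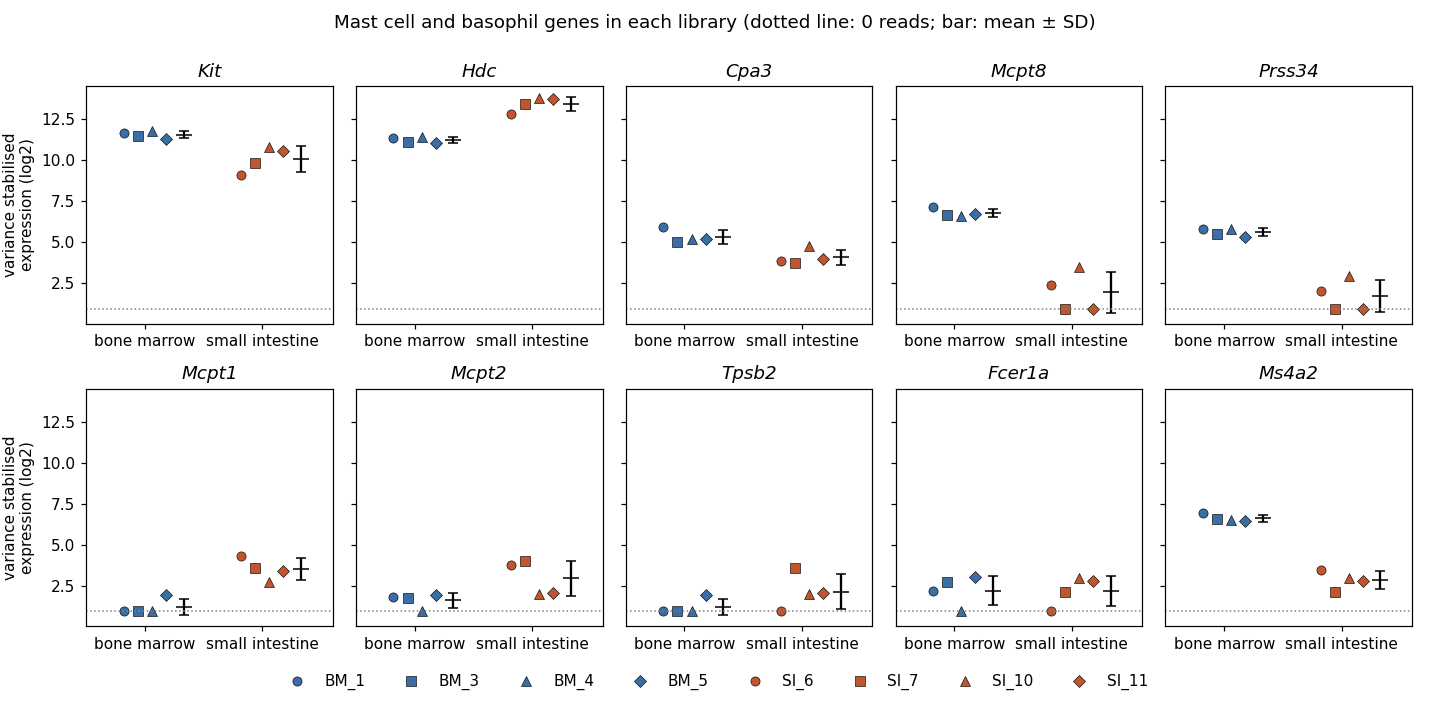
Deposited variance stabilised expression (log2-like scale, y axis) of the 10 members in each of the 4 bone marrow (blue) and 4 small intestine (orange) libraries, with the mean ± SD of each tissue as bars and the value of 0 reads as a dotted line. Hdc and Kit lie far above the other members in both tissues, Mcpt8, Prss34 and Ms4a2 lie near the dotted line in small intestine only, and Mcpt1, Mcpt2, Tpsb2 and Fcer1a lie near it in all bone marrow libraries.

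Kit, the receptor tyrosine kinase for stem cell factor, was abundant in bone marrow and lower in small intestine. It had 4190, 4494, 3655 and 2675 reads in BM_1, BM_3, BM_4 and BM_5, and 491, 659, 1661 and 1256 in SI_6, SI_7, SI_10 and SI_11. Per library size this gave 3031 ± 430 normalised counts in bone marrow against 1189 ± 573 in small intestine (mean ± SD, n = 4 each). The tissues did not overlap, yet the small intestine libraries spread 3.39-fold from lowest to highest and the bone marrow libraries 1.41-fold. The difference was -1.48 (SE 0.38, adjusted p = 0.0152), and over summed reads the level was 2.53-fold lower, with a 95% interval of 2.44 to 2.62 that covers counting error only. Without SI_7 the difference was -1.41 and did not pass (adjusted p = 0.0510), while with a prior that follows the expression level the adjusted p was 0.00014. Kit ranked above 93.7% of 20623 protein-coding genes in bone marrow and above 83.2% in small intestine by RPKM (reads scaled to exon length in kilobases and to library size). Of other cells that use Kit, the stem and progenitor list had 3 genes higher and 3 lower of 10, and its summed share, like Kit, was lower in each small intestine library. Its genes that fell were Myb, 34.7-fold lower over summed reads, Erg, 22.5-fold lower, and Hlf, 8.56-fold lower. Those that rose were Meis1, 60.2-fold higher, Mecom, 8.81-fold higher, and Cd34, 1.48-fold higher. The median difference of this list was 0.23, and Myb alone had 33633 summed reads in bone marrow. Shares over all genes were 22.0% higher and 12.9% lower. The interstitial cell of Cajal list had 3 genes higher of 3, with Ano1 at 0, 2, 0 and 4 reads in bone marrow and 55, 20, 28 and 18 in small intestine. The part of these cells in the level of Kit was not tested.

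Kitl, which encodes stem cell factor, the ligand of KIT, moved in the opposite direction to its receptor. It had 3, 11, 1 and 8 reads in bone marrow and 228, 85, 35 and 34 in SI_6, SI_7, SI_10 and SI_11, a difference of 3.63 (SE 0.64, adjusted p = 0.00225). The levels did not overlap, and SI_6, where Kit was lowest, held the most Kitl. Stem cell factor is known from epithelial and stromal cells, and the normalised counts of Kitl within the gut were ordered as the epithelial share and as Jchain. With 35 reads in SI_10 and 34 in SI_11, the order between these libraries comes from library size alone. The part of epithelial, stromal and plasma cells was not tested.

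The IgE receptor chains did not move together. Ms4a2, the beta chain, had 156, 141, 93 and 89 reads in bone marrow and 7, 1, 4 and 3 in SI_6, SI_7, SI_10 and SI_11. Its level was 95.8 ± 16.3 normalised counts in bone marrow against 4.24 ± 2.59 in small intestine, a difference of -3.79 (SE 0.30, adjusted p = 2.9e-05) with no overlap and a 21.9-fold lower level over summed reads. Of the 75-base stretches of its transcripts, 1.23% also occur in Ms4a4b, so a few reads could belong to that gene; no such stretch was found for the other 9 members.

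Fcer1a, the chain that binds IgE, was close to the detection limit in both tissues. It had 2, 5, 0 and 5 reads in bone marrow and 0, 1, 4 and 3 in small intestine, with mean levels of 2.36 and 2.33 normalised counts. The groups overlapped, and the difference of -0.01 had a 95% interval from -1.31 to 1.29 (limma adjusted p = 0.989). Over summed reads the ratio of bone marrow to small intestine was 1.03, with a counting interval from 0.386 to 2.90. A change in either direction within these intervals is therefore compatible with the reads. Fcer1g, the gamma chain, which also serves other Fc receptors of myeloid cells, was abundant throughout. It had 2904, 3645, 1835 and 2011 reads in bone marrow and 2631, 2286, 2813 and 3537 in small intestine, a difference of 0.69 (SE 0.21, adjusted p = 0.0320). That call was lost without BM_1 (0.73, adjusted p = 0.0541) or BM_4 (0.62, adjusted p = 0.0839) and after quantile normalisation (0.34), and the difference turned to -0.21 after centring on the median of all genes. Per length, the levels in bone marrow were 0.178 RPKM for Fcer1a, 2.55 for Ms4a2 and 176 for Fcer1g, and in small intestine 0.146, 0.0953 and 237.

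Kinases and adaptors downstream of the receptor were mostly higher in small intestine, 9 of 12 with none lower, Fcer1g included. Of all genes, 22.0% were higher and 12.9% lower. The median difference of the 12 was 1.38, beside 0.37 for all genes. Syk, the kinase recruited by the receptor, rose by 3.08 (SE 0.19, adjusted p = 9.2e-06), from 2467 ± 171 to 21052 ± 3286 normalised counts. Fyn, a Src family kinase, rose by 2.69 (adjusted p = 2.9e-05), from 30.0 ± 4.73 to 215 ± 37.0. Lyn, which starts the signal, rose by 2.18 (adjusted p = 5.4e-05) and was named after its values were seen. After centring on the median of all genes, 3 of the 12 remained higher and 1 was lower. These kinases serve many receptors of myeloid cells besides the IgE receptor.

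Hdc, which makes histamine from histidine, rose in small intestine. It had 3442, 3480, 2867 and 2273 reads in bone marrow and 6618, 7973, 13013 and 11408 in SI_6, SI_7, SI_10 and SI_11. Levels were 2441 ± 298 and 11510 ± 3165 normalised counts, with no overlap and a difference of 2.20 (SE 0.26, adjusted p = 0.00026). Per length this was 28.7 RPKM in bone marrow and 113 in small intestine, the highest mean of the members in either tissue and above 94.6% and 98.8% of protein-coding genes. Within a library, the level of Hdc per length was 1.08 to 1.19 times that of Kit in bone marrow and 10.9 to 18.8 times in small intestine, so the ratio was steady in bone marrow and varied more in the gut. Among the small intestine libraries Hdc and Kit followed the same order, with SI_10 highest, then SI_11, SI_7 and SI_6, which is the reverse of the order of the epithelial share and of Jchain.

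Other genes of histamine handling went both ways, with 2 of 7 higher, 2 lower and 3 not called. Beside them, 22.0% of all genes were higher and 12.9% lower. Slc18a2, the transporter that loads histamine into granules, had the highest level per length of this list in bone marrow (7.09 RPKM, against 7.36 in small intestine), and a difference of 0.31 that did not pass (adjusted p = 0.230). Aoc1, the diamine oxidase that degrades histamine and is known from gut epithelium, rose by 6.45 (SE 0.70, adjusted p = 0.00017), with 0, 2, 2 and 5 reads in bone marrow and 1125, 356, 135 and 171 in SI_6, SI_7, SI_10 and SI_11. Its normalised counts within the gut were ordered as the epithelial share and as Jchain, and the part of these cells was not tested. Hrh1, a histamine receptor, rose by 3.11 (adjusted p = 0.00105), from 0, 7, 0 and 1 reads to 14, 19, 27 and 24. The receptor Hrh2 fell by 2.50 on the log2 scale in small intestine (adjusted p = 5.6e-05), and Hnmt, which methylates histamine inside cells, fell by 2.32 (adjusted p = 9.7e-05).

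Cpa3, the carboxypeptidase of mast cell granules, was low in both tissues and lower in small intestine. It had 75, 43, 35 and 35 reads in bone marrow and 10, 7, 21 and 10 in SI_6, SI_7, SI_10 and SI_11. The levels of 37.9 ± 13.3 and 13.9 ± 6.14 normalised counts gave a difference of -1.26 (SE 0.31, adjusted p = 0.0118). The lowest bone marrow library, BM_3 at 28.0 normalised counts, lay just above the highest of small intestine, SI_10 at 23.0. The ratio of Kit to Cpa3 per length was 9.51 to 17.8 in bone marrow and 8.36 to 21.4 in small intestine, ranges that overlap.

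Mcpt8, the basophil granule protease, was the member with the largest fall. It had 183, 152, 98 and 109 reads in bone marrow and 2, 0, 7 and 0 in SI_6, SI_7, SI_10 and SI_11. Its level was 109 ± 21.3 normalised counts in bone marrow against 2.46 ± 3.61 in small intestine, a difference of -4.86 (SE 0.56, adjusted p = 0.00024). Over summed reads it was 41.2-fold lower, with a 95% interval of 21.6 to 90.6 for counting error.

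Prss34, a tryptase of basophils, showed the same picture at a lower level. Reads were 69, 64, 54 and 38 in bone marrow and 1, 0, 4 and 0 in small intestine, where SI_7 and SI_11 held none of it and none of Mcpt8. Its level fell from 45.4 ± 8.37 to 1.37 ± 2.07 normalised counts, a difference of -3.90 (SE 0.45, adjusted p = 0.00025) and a 30.8-fold lower level over summed reads. Within bone marrow libraries the level of Mcpt8 per length was 2.22 to 3.51 times that of Prss34 and 2.97 to 3.45 times that of Ms4a2. In SI_6 and SI_10, the 2 small intestine libraries with reads of both proteases, the ratio to Prss34 was 2.45 and 2.14.

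Mcpt1, a chymase of mucosal mast cells, was the second member that rose, from almost no reads. It had 0, 0, 0 and 1 reads in bone marrow and 15, 6, 3 and 6 in SI_6, SI_7, SI_10 and SI_11, a difference of 2.32 (SE 0.38, adjusted p = 0.00166, or 0.00284 with a prior that follows the expression level). The pooled ratio of 43.8 had a counting interval from 7.29 to 1788, since it rests on 1 read in bone marrow. Its normalised counts were ordered as the epithelial share and as Jchain, from 16.4 in SI_6 through 8.32 in SI_7 and 7.11 in SI_11 to 3.28 in SI_10. SI_7 and SI_11 had 6 reads each, so the order between them comes from library size alone. The part of epithelial and plasma cells was not tested.

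Mcpt2, the neighbouring mucosal protease, had 1, 1, 0 and 1 reads in bone marrow and 9, 9, 1 and 1 in small intestine. The level was high in SI_6 and SI_7 alone, and SI_10 and SI_11 exceeded bone marrow only because 1 read weighs more in them. The difference of 1.34 (SE 0.52) did not pass (adjusted p = 0.0803), but did with limma voom on the recovered reads (2.27, adjusted p = 0.0499). Tpsb2, a tryptase of connective tissue mast cells, had 0, 0, 0 and 1 reads against 0, 6, 1 and 1, with groups that overlapped and a difference of 0.96 (SE 0.53, adjusted p = 0.209).

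The proteases lie in 2 gene clusters. On chromosome 14 (GRCm38), Mcpt1 (56017971-56020384), Mcpt2 (56042041-56044642) and Mcpt8 (56082166-56085273) stand between the chymases and the granzymes, next to Ctsg (56099881-56102574), the cathepsin G of neutrophil granules. Of the other 12 genes of that locus, 2 were higher, 1 was lower and 9 did not pass. The shares of all genes were 22.0% higher and 12.9% lower. Ctsg, the neighbour of Mcpt8, fell by 9.23 on the log2 scale (adjusted p = 3.0e-07), with 19073, 19992, 14399 and 11799 reads in bone marrow and 14, 9, 30 and 14 in small intestine. Gzmn and Cma2 were called higher by 1.82 and 1.63 on 4 against 22 and 1 against 14 summed reads, and both calls were lost after centring on the median of all genes. Gzmn also missed the threshold without BM_1, BM_3, BM_4, SI_10 or SI_11, with differences of 1.61 to 1.76 and adjusted p of 0.0521 to 0.0736. The 7 granzyme genes had at most 12 reads in a bone marrow library and 10 in a small intestine library. The chymases of connective tissue mast cells were close to 0, with Mcpt4 at 0 reads in each bone marrow library and 1, 0, 1 and 0 in small intestine, and Cma1 at 0, 0, 0 and 7 against 3, 2, 5 and 0.

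**Figure D3:**
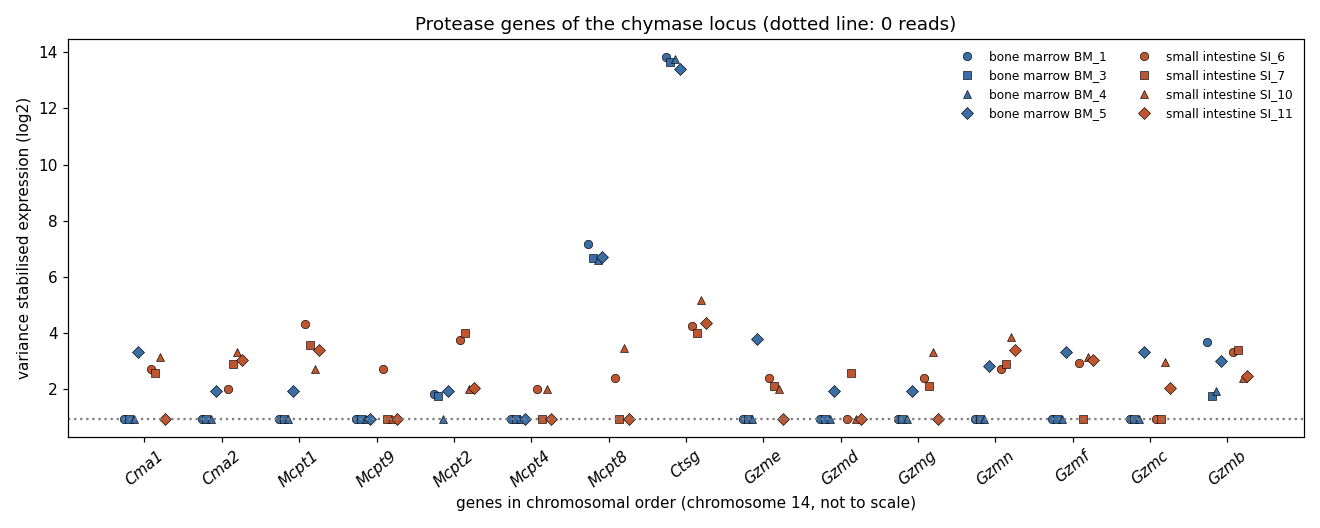
Deposited variance stabilised expression (log2-like scale, y axis) of 15 protease genes of the chymase locus in chromosomal order (x axis, not to scale) in each bone marrow (blue) and small intestine (orange) library, with the value of 0 reads as a dotted line. Ctsg and Mcpt8 stand far above the line in bone marrow, Mcpt1 lies higher in small intestine, and the other genes, with Gzmn and Cma2 among them, have at most 12 reads in any library.

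On chromosome 17, Prss34 (25298394-25300165) and Tpsb2 (25366305-25369098) share a cluster with other tryptases. From Prss34 to Tpsg1, the bone marrow reads were those of Prss34 apart from 1 read of Tpsb2, and Tpsab1 and Tpsg1 had 0 reads in all 4 bone marrow libraries. Tpsg1, a membrane-anchored tryptase, had 21, 15, 9 and 4 reads in SI_6, SI_7, SI_10 and SI_11, at least 23.9-fold higher than a floor of 3 reads over the bone marrow group, and Tpsab1 had 5, 1, 5 and 1, at least 5.84-fold higher (adjusted p = 0.00031 and 0.00268, the call of Tpsab1 being lost after centring on the median of all genes). Prss30, whose start lies 1326 kb from that of Prss34, had 2, 0, 0 and 1 reads in bone marrow and 50, 18, 15 and 31 in small intestine, a difference of 3.60 (adjusted p = 0.00027). Of the 6 tryptase genes beside the members, 3 were higher, none was lower, and 5 had a mean under 10 reads. Among all genes, 22.0% were higher and 12.9% lower.

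**Figure D4:**
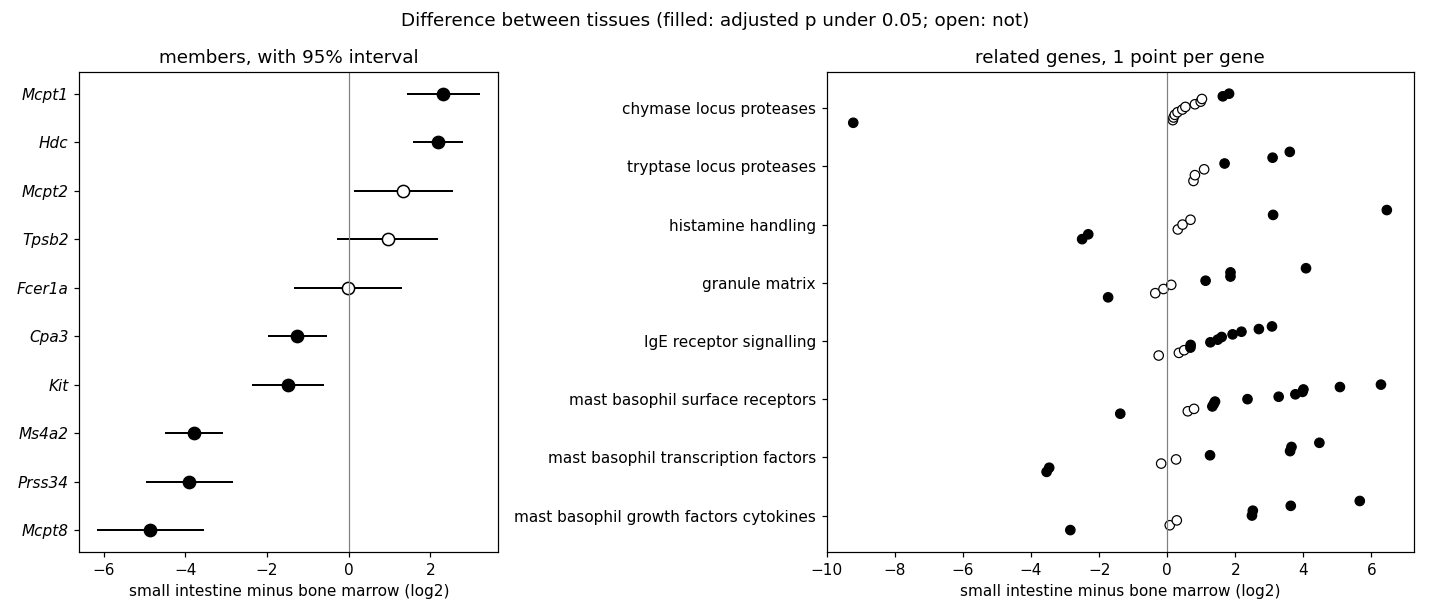
Differences between tissues (small intestine minus bone marrow, log2-like scale, x axis) of the members with their 95% limma intervals (left) and of 73 related genes in 8 lists (right, y axis), filled where the adjusted p was under 0.05. Members lie on both sides of 0, from -4.86 for Mcpt8 to 2.32 for Mcpt1, whereas most filled points of the related lists lie above 0.

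The related genes, proteases included, were more often higher than lower in small intestine. Of 73 genes in 8 lists, 38 were higher, 8 lower and 27 not called, with a median difference of 1.09. Among all genes 34.9% were called, 22.0% higher and 12.9% lower. A mean under 10 reads was found for 25 of the 73 and for 22177 of all 38392 genes, so the 2 shares cover unlike levels. With only genes of at least 10 mean reads, 33 related genes were higher and 8 lower. In that setting 11824 genes were called in all, 53.8% of them higher. After centring on the median of all genes, 22 were higher and 10 lower. The genes of the granule matrix counted 4 higher and 1 lower of 8, or 1 higher and 2 lower after that centring. Srgn, the serglycin core that binds proteases in granules of many leukocytes, had the highest level per length in either tissue, with 11425 ± 1420 normalised counts in bone marrow against 41906 ± 8842 in small intestine, a difference of 1.86 (adjusted p = 0.00024) that did not pass after that centring (0.96, adjusted p = 0.0948). Ndst1, a heparan sulfate sulfotransferase, rose by 4.08 (adjusted p = 3.9e-06), while Ndst2, the enzyme that heparin of mast cells requires, differed by -0.11 and did not pass (adjusted p = 0.754).

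Surface receptors of mast cells and basophils were higher for 10 of 13 genes and lower for 1, beside 22.0% and 12.9% of all genes. Their median difference was 2.36. After centring on the median of all genes, 7 were higher and 1 lower. Ptgdr2, the prostaglandin D2 receptor shared by basophils and eosinophils, had 0, 4, 0 and 1 reads in bone marrow and 179, 160, 221 and 219 in small intestine, a difference of 6.28 (adjusted p = 7.3e-06). Csf2rb2, the beta chain of the interleukin 3 receptor, rose by 5.08 (adjusted p = 8.9e-07), and Csf2rb, the chain shared with the interleukin 5 and GM-CSF receptors that eosinophils use, had the highest level per length of the list there (113 RPKM, and 13199 ± 1627 normalised counts, against 2557 ± 136 in bone marrow). Cd63, a granule membrane protein used as a basophil activation marker, was the receptor list's gene that fell, by 1.38 (adjusted p = 0.00123). Il1rl1, the interleukin 33 receptor, rose by 3.77 (adjusted p = 0.00067). Some receptors of the list had few reads. Mrgprb2, the mast cell receptor for basic peptides, had 0, 0, 0 and 4 reads in bone marrow and 2, 0, 4 and 2 in small intestine, Cd200r3 had 1, 7, 2 and 14 against 5, 3, 10 and 8, and neither passed. Mrgprb1 was called higher on 0 against 6 summed reads, a call lost after quantile normalisation or centring on the median of all genes. These 3 receptors, Il1rl1 and Cd63 were named after their values were seen.

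Among 8 transcription factors of the lineages, 4 were higher and 2 lower, or 3 and 2 after that centring. On the deposited values, 22.0% of all genes were higher and 12.9% lower. Gata2, needed by mast cells and basophils, had 51, 52, 43 and 25 reads in bone marrow and 573, 547, 812 and 926 in small intestine, a difference of 4.47 (SE 0.26, adjusted p = 5.9e-06) without overlap. Ikzf2, a factor of the Ikaros family, rose by 3.65 (adjusted p = 3.9e-06), and Gata1, which eosinophils also require, by 3.61 (adjusted p = 1.7e-05). Tal1, a hematopoietic factor, fell by 3.54 (adjusted p = 2.4e-05). Cebpa, a factor of granulocyte precursors with the highest level per length of the list in bone marrow (17.3 RPKM), fell by 3.47 (adjusted p = 0.00013). Mitf, a regulator of mast cell protease genes, differed by 0.26 and did not pass (adjusted p = 0.320). GATA words stood in the promoter windows of members that were lower (Ms4a2, Prss34 and Cpa3), higher (Hdc and Mcpt1) and not called (Fcer1a), and in neither Kit nor Mcpt8, which were lower, and a link with the GATA factors was not tested.

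Growth factors and cytokines numbered 4 higher and 1 lower of 7, beside 22.0% higher and 12.9% lower of all genes. Il4, made by basophils, mast cells and eosinophils, had 2, 6, 3 and 13 reads in bone marrow and 304, 198, 381 and 434 in small intestine, a difference of 5.66 (adjusted p = 1.6e-05). Il13 had 0, 0, 0 and 1 reads against 7, 5, 7 and 14, and Il3 and Il9, cytokines that act on these cells, had at most 4 reads in any library. Tslp, a cytokine that acts on basophils, fell by 2.85 on the log2 scale in small intestine (adjusted p = 0.00058). Il33, the ligand of the receptor Il1rl1, was called higher by 2.52 and kept that call under each alternative.

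The order of the members by level differed between tissues. In bone marrow it ran from Hdc (28.7 ± 3.67 RPKM) and Kit (25.5 ± 3.73), which lay within each other's spread, to Mcpt8 (8.14), then Prss34 (2.79 ± 0.494), Ms4a2 (2.55 ± 0.342) and Cpa3 (1.87 ± 0.597), where Prss34 and Ms4a2 lay within each other's spread, and finally Fcer1a (0.178 ± 0.158), with Mcpt2, Mcpt1 and Tpsb2 below it. In small intestine Hdc (113 ± 30.8 RPKM) and Kit (8.35 ± 4.13) stood apart from each other and from the rest. Cpa3 (0.578 ± 0.279), Mcpt1 (0.543 ± 0.353) and Mcpt2 (0.366 ± 0.351) followed within each other's spread, and Mcpt8, Fcer1a, Tpsb2, Ms4a2 and Prss34 had means between 0.0733 and 0.161 with standard deviations of 0.0605 to 0.238.

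The genes most like each member over the 8 libraries were sought among 12873 protein-coding genes by the root mean square distance between profiles centred on their own means, a measure ruled by the tissue difference. Gskip (0.199 on the log2 scale) and Accs (0.220) were closest to Kit, Poll and Mfsd4b4 to Cpa3, and Srpk2 (0.0992) and D16Ertd472e (0.104) to Hdc. Ak4 was closest to Mcpt8 (0.320) and second to Prss34 (0.325), after the histone gene H3c11 (0.312) and before Sh2d5 for Mcpt8 (0.394). H2ac20 (0.139) and Angptl4 (0.161) were closest to Ms4a2.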

How the data were processed

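RNA of eosinophils sorted from bone marrow (4 libraries) and small intestine (4 libraries) was sequenced. According to the study's methods and the labels, the authors aligned reads to GRCm38 and counted them per gene with the nf-core/rnaseq pipeline, and then applied the variance stabilising transformation of DESeq2 in R 4.0.3, so that the deposited values are log2-like, relative to size factors, with a floor at 0.92971568 for 0 reads. Whether counting used strand is not given in the sources used here. Groups came from the labels, and the columns of the table gave the tissue but not the sample. By the study's methods replicates are mice.

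The transformation was inverted to normalised counts and reads. All values of the 38392 genes came out as whole reads within a tolerance of 0.05 reads (largest deviation 0.00691), with 11508002 to 21289164 reads per library and size factors of 0.721 to 1.53. Of the genes, 22177 had a mean under 10 reads. Since the deposited unit was not counts, the tissues were compared with limma 3.58.1 (R 4.3.3; constant prior, no covariate, no filter, two-sided, Benjamini-Hochberg adjustment over all genes, threshold 0.05) and not with the count test of the study. The procedure was tested on simulated data, where the constant prior made more false calls than nominal among genes of few reads and a prior following expression made fewer. Shares, RPKM from GENCODE M21 exon lengths and ratios were computed in Python 3.11.15 with pandas 2.3.3 and scipy 1.17.1, and figures drawn with matplotlib 3.10.9. Intervals of ratios over summed reads cover counting error only. The floor of 3 reads stands for bone marrow reads and does not cover counting error in small intestine.

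Alternatives were limma voom on the recovered reads, a prior following expression, other scalings (centring each library on a median, quantile normalisation), a minimum mean of 10 reads, log2 of normalised counts plus 1 or 5, and leaving out each library. Named were the members, the 2 called genes of each related list with the largest difference, the gene of each list with the highest level, Fcer1g, Kitl, Gata2, Mcpt4, Cma1 and Tpsab1 whatever their values, and the 2 protein-coding genes closest in profile to each member with a mean of at least 10 normalised counts in a tissue. Outside this rule, Cma2, Lyn, Hrh2, Hnmt, Ndst2, Mitf, Gata1, Tal1, Il13, Il3, Il9, Tslp, Mrgprb1, Mrgprb2, Cd200r3, Il1rl1, Cd63, Erg, Hlf and Jchain were named after their values were seen. Mecom, Cd34, Adgre1, Cd209a and Il33 were likewise named after their values were seen. The members and lists were chosen with earlier results of these data known. The result of a further cell type list is not reported here.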

Additional observations from a re-analysis of the deposited data

Results flagged for a closer look

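In 51 groups of 4 libraries (the levels of the members and of a few related genes, and the shares of the cell type lists), the gap between the most extreme library and its nearest neighbour was divided by the range of the group and compared with Dixon's 95% critical value for that size. Chance flags about 1 in 20 groups, and 7 were found, several of which rest on ties at 0 reads. In bone marrow, BM_5 stood apart for Mcpt1 (ratio 1, 1 read against 0 in the others), for Tpsb2 (ratio 1, likewise 1 read) and for Cma1 (ratio 1, 7 reads against 0). The share of interstitial cell of Cajal genes also stood apart in BM_5 (ratio 0.94, with 0.000235% of reads against at most 1.41e-05%). BM_4 stood apart for Mcpt2 (ratio 0.842), as the only bone marrow library with 0 reads where the others had 1. In small intestine, SI_6 stood apart for Mcpt9 (ratio 1, 3 reads against 0) and for a low share of eosinophil genes (ratio 0.889, 0.215% against 0.2625 to 0.2684%).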

How the results depend on the processing

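Over 156 combinations of a member and an alternative, 149 kept direction and side of the threshold, 5 changed sign, 1 lost a call and 1 gained one. All 5 sign changes were of Fcer1a, which was not called: its difference was 0.0989 with limma voom and lay between -0.4353 (without BM_4) and 0.4111 (without SI_6) when libraries were left out. Kit lost its call without SI_7 (-1.41, adjusted p = 0.0510), and Mcpt2 gained one with limma voom (2.27, adjusted p = 0.0499). Only 1 member was higher where genes with a mean under 10 reads were left out, since Mcpt1 was then not tested. Centring each library on its median over all genes, a scaling chosen after seeing the data, left 22 related genes higher in place of 38, with 10 lower in place of 8, and moved the median difference of all genes from 0.37 to -0.53, whereas quantile normalisation moved it to -0.03. Leaving out 1 library gave 2 members higher throughout, 4 to 5 lower, 36 to 39 related genes higher, 8 lower, and 10982 to 14670 genes called in all. No paired analysis was run. The sample titles number the bone marrow samples F1 to F4 and the small intestine samples F5 to F8. The columns of the 2 tissues share no replicate number either. At 3 reads or fewer per library, as for Mcpt2 and Tpsb2 in bone marrow, depth limits what could be detected. Shares of lists without each library follow from the ranges given and were not tested.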

Other observations

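Reads of scarcely expressed genes were unevenly spread over bone marrow. Of the 83 members and related genes, 15 had bone marrow reads in BM_5 alone, among them 8 of the 12 genes of the chymase list, while BM_1, BM_3 and BM_4 each had 0 such genes. BM_5 had reads for 30886 genes of the table, the other bone marrow libraries for 19713 to 24592 and the small intestine libraries for 26624 to 33346.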
